A study of Homo sapiens with 2 samples.

Results

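The matrix metalloproteinases (MMPs) and the tissue inhibitors of metalloproteinases (TIMPs) were examined as a family in U87 cells, an established human glioblastoma line, after CCA-1.1 treatment. The 10 members were MMP1, MMP2, MMP3, MMP7, MMP9, MMP10, MMP14, TIMP1, TIMP2 and TIMP3, out of 41582 gene symbols matched in the table. They were chosen by name from the family, with the gene totals of this same table already known, so their values are descriptions and were not tested. Messenger RNA was sequenced from cells of genotype WT kept for 72 h in DMSO, the vehicle, or in the curcumin analog CCA-1.1, with sequencing of 1 library each. Both cultures were grown in the same serum-containing RPMI medium, and the CCA-1.1 concentration is not given in the sources used here. Since each condition has 1 library, every difference below compares 2 libraries without a replicate check, and none carries a p-value. The deposited unit is TPM, the length-normalized share that a transcript has of all transcripts of its library, from which the read depth is unknown. In a bulk culture, fewer cells of a type and less RNA per cell cannot be told apart.

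MMPs are secreted or membrane-bound zinc proteases that cleave collagens, laminins, fibronectin and other matrix proteins, and they are made as inactive proenzymes. TIMPs bind the active enzymes and block them, so the balance of both groups is a common measure of matrix turnover. In glioblastoma, MMP2, MMP9 and MMP14 are well known for their part in the invasion of brain tissue.

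Of the 10 members, 8 had a mean of at least 1 TPM over the 2 libraries, and 7 of these 8 were lower with CCA-1.1. Among all 12041 protein-coding genes with that mean, called tested genes here, 46.0% were lower by any amount and 53.8% were higher. Among the 1499 of them averaging 100 TPM or more, 867 were lower and 632 higher. MMP3, a stromelysin, was the member with the largest relative difference, with 223.5 TPM with DMSO against 108.1 TPM with CCA-1.1. MMP7, the matrilysin, was the member above 1 TPM that was higher with CCA-1.1, with 577.3 TPM with DMSO against 795.9 TPM with CCA-1.1. Differences are given on the log2(TPM + 1) scale, CCA-1.1 minus DMSO, which understates the change of genes at low TPM. More than 2-fold lower was 1 of the 8 members, MMP3 at -1.04, against 0.191% of all tested genes, and 0 of the 8 were more than 2-fold higher, against 0.149%. At 1.5-fold the counts were also 1 lower and 0 higher, against 0.739% and 0.963% of all tested genes. The median difference of the 8 members was -0.37, beside 0.017 over all tested genes and -0.027 over the 1499 genes averaging 100 TPM or more. Where a pair of values follows without a condition, DMSO comes first. The values of the whole family are shown in the plot of levels.

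**Figure D1:**
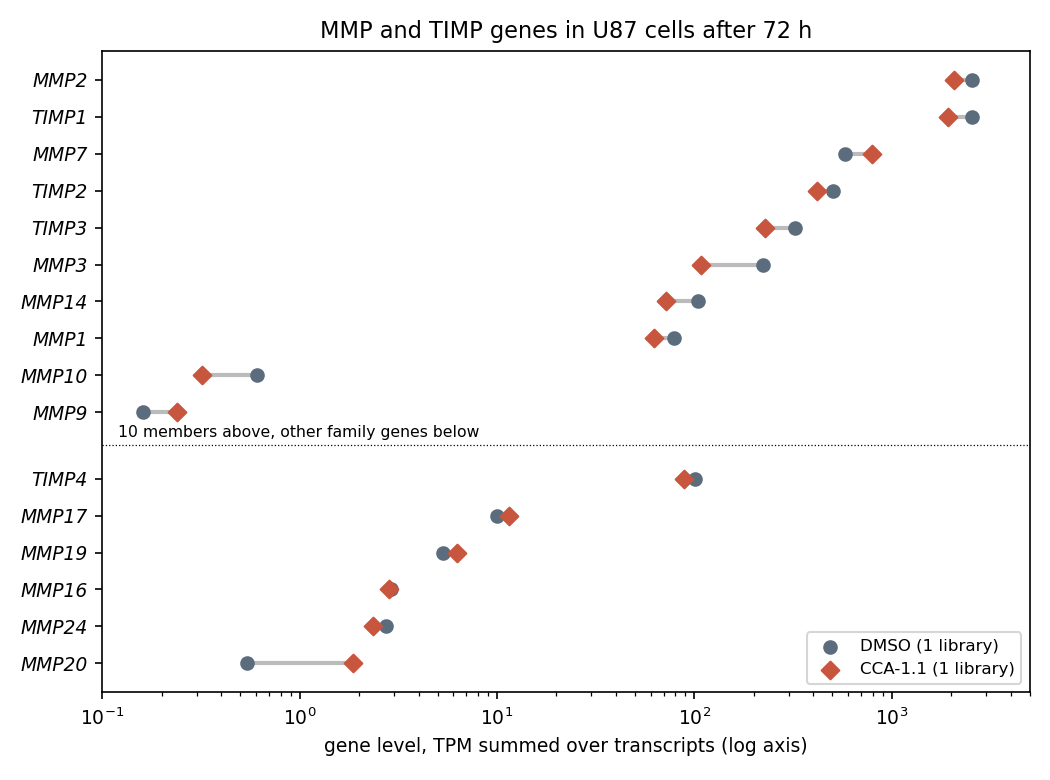
Gene level in TPM (log axis) of the 10 members and of the 6 other family genes averaging 1 TPM or more, with a circle for the DMSO library and a diamond for the CCA-1.1 library, 1 library each. The diamond lies left of the circle for all members but MMP7 and MMP9, and the widest gap among the members is that of MMP3, from 223.5 to 108.1 TPM.

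RefSeq promoter windows of GRCh38.p14 were on hand for 5 of the 10 members, each running from 250 bases before the gene start to 50 bases after it. The windows of MMP1, MMP2, MMP3, MMP9 and TIMP2 were not analysed here. Those of MMP7, which was higher with CCA-1.1, and of 3 lower members (MMP14, TIMP1 and TIMP3) are shown. MMP1 and MMP3, which were lower and lie on chromosome 11 like MMP7, are not among them. Whether an element goes with a direction was not tested. Capitals mark the AP-1 element (TGAGTCA, or its reverse complement TGACTCA), the TATA box (TATAAA), the GC box (GGGCGG) and an ETS-type element (AGGAAG), searched on both strands, and no marked elements overlap in these 4 windows.
MMP7, chr11:102530698-102530997, minus strand: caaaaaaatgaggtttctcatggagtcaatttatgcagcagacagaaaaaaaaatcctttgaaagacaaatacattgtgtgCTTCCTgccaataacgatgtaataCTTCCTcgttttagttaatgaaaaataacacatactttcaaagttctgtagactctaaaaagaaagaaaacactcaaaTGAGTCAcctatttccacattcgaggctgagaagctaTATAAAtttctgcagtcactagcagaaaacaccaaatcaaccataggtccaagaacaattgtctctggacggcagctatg
MMP14, chr14:22836335-22836634, plus strand: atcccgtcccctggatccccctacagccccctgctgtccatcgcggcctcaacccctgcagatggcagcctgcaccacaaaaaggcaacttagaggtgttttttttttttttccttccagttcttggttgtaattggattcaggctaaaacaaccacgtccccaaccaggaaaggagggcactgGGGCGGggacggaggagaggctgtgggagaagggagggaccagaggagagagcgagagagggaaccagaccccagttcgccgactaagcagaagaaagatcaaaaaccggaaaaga
TIMP1, chrX:47582186-47582485, plus strand: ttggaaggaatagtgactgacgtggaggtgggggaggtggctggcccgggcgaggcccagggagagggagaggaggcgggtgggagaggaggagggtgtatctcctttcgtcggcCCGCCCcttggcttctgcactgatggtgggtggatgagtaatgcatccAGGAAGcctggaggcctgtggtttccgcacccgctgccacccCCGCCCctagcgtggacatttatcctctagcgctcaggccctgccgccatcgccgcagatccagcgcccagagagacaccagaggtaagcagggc
TIMP3, chr22:32801455-32801754, plus strand: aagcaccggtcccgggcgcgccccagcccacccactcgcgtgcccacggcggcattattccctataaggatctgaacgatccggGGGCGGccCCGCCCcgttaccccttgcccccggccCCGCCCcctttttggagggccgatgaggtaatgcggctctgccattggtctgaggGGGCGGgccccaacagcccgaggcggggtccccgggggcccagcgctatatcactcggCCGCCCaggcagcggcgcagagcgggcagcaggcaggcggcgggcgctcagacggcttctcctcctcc

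The MMP7 window held an AP-1 element beginning 67 bases before the start, a TATA box beginning 30 bases before it and 2 ETS-type elements. The MMP14, TIMP1 and TIMP3 windows held 1, 2 and 5 GC boxes and neither an AP-1 element nor a TATA box in these letters, and TIMP1 also held 1 ETS-type element. The window of MMP10, not printed because the gene was under 1 TPM, held a TATA box beginning 31 bases before the start and none of the other elements. Among the 5 member windows, the AP-1 element was thus in 1, the TATA box in 2, the GC box in 3 and the ETS-type element in 2. Over all 35116 windows the shares were 4.95% for the AP-1 element, 11.5% for the TATA box, 45.0% for the GC box and 33.6% for the ETS-type element. The share of G and C in the MMP7 window was 35.7%, against 55.0% for MMP14, 65.0% for TIMP1 and 72.7% for TIMP3, with a median of 58.7% over all windows. A match of letters is a description and shows no binding.

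MMP1, the interstitial collagenase, which cuts fibrillar collagens (Entrez identifier 4312, chr11:102789919-102798160), was at 79.1 TPM with DMSO against 62.6 TPM with CCA-1.1 (log2 difference -0.33). The table lists 2 MMP1 transcripts, of which NM_002421.4 carried the whole value and the other was listed at 0 in both libraries. The other collagenases were near or at the floor of the table, with MMP8 listed at 0 in DMSO and at 0.02 TPM in CCA-1.1, and MMP13 listed at 0 in both libraries.

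MMP2, the gelatinase that cleaves denatured collagen and the collagen of basement membranes (4313, chr16:55478830-55506691), had the highest level of all MMPs, with 2556 TPM with DMSO against 2064 TPM with CCA-1.1 (log2 difference -0.31). Of its 5 listed transcripts, NM_004530.6 held 86.1% of the gene in DMSO and 82.7% in CCA-1.1, with 2200 TPM and 1707 TPM. The other 4 transcripts together were at 356.6 TPM with DMSO against 356.4 TPM with CCA-1.1. The lower MMP2 total was therefore the lower value of NM_004530.6, although Kallisto divides reads shared by transcripts of a gene by estimation. The related gelatinase MMP9 (4318, chr20:46008908-46016561) was at 0.16 TPM with DMSO against 0.24 TPM with CCA-1.1, too close to the smallest value of the table above 0, 0.01 TPM, for a fold change to be read.

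MMP3, which cleaves proteoglycans, laminin and fibronectin and can also activate other proMMPs (4314, chr11:102835801-102843609), has 1 transcript in the table, NM_002422.5. Its TPM was 2.07-fold lower with CCA-1.1, and its difference of -1.04 ranked 21st from the lowest among the 12041 tested genes and 4th among the 1499 genes averaging 100 TPM or more. The level of MMP3 was 2.83 times that of MMP1 in DMSO and 1.73 times in CCA-1.1. The second stromelysin among the members, MMP10 (4319, chr11:102770502-102780628), was at 0.61 TPM with DMSO against 0.32 TPM with CCA-1.1. Both were lower with CCA-1.1, but MMP10 was under 1 TPM in each library. MMP11, a stromelysin that is no member, was at 0.53 and 0.65 TPM.

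MMP7, a small MMP without the hemopexin domain of most others and more often known from epithelial cells (4316, chr11:102520508-102530747), has 1 transcript in the table, NM_002423.5. Its TPM was 1.38-fold higher with CCA-1.1, a difference of 0.46. This ranked 274th from the highest among all tested genes and 17th among the genes averaging 100 TPM or more. The level of MMP2 was 4.43 times that of MMP7 in DMSO and 2.59 times in CCA-1.1. MMP26, the other matrilysin, was listed at 0 in both libraries.

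MMP14 is a membrane-type MMP that, together with TIMP2, activates proMMP2 at the cell surface. MMP14 (4323, chr14:22836585-22847758) was at 104.0 TPM with DMSO against 71.9 TPM with CCA-1.1 (log2 difference -0.53), and ranked 137th from the lowest. All genes of this surface complex were lower with CCA-1.1, MMP14 by more than MMP2 and TIMP2. The level of MMP2 was 5.06 times that of TIMP2 in DMSO and 4.92 times in CCA-1.1. The level of MMP14 was 0.206 times that of TIMP2 in DMSO and 0.171 times in CCA-1.1.

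TIMP1, an inhibitor of most MMPs that also acts as a growth factor for some cells (7076, chrX:47582436-47586789), had 2540 TPM with DMSO against 1917 TPM with CCA-1.1 (log2 difference -0.41). TIMP2, which both inhibits MMP2 and takes part in its activation (7077, chr17:78852977-78925387), had 504.7 TPM with DMSO against 419.2 TPM with CCA-1.1 (log2 difference -0.27). TIMP3, which is bound to the matrix and also inhibits several ADAM proteases (7078, chr22:32801705-32863041), had 321.4 TPM with DMSO against 228.4 TPM with CCA-1.1 (log2 difference -0.49). Each of the 3 inhibitors was lower with CCA-1.1, and each has 1 transcript in the table. From the lowest, TIMP3 ranked 177th, TIMP1 304th and TIMP2 823rd among all tested genes, and MMP1 and MMP2 ranked 514th and 599th. Among the genes averaging 100 TPM or more, TIMP3 ranked 17th, TIMP1 33rd, MMP2 75th and TIMP2 103rd. The order of TIMP levels, TIMP1 above TIMP2 above TIMP3, was the same in both libraries.

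Since TPM is per transcript length, the levels of different genes can be added. The 7 member MMPs summed to 3541 TPM with DMSO against 3103 TPM with CCA-1.1, and the 3 member TIMPs summed to 3367 TPM and 2565 TPM. The MMP sum was thus 1.05 times the TIMP sum in DMSO and 1.21 times in CCA-1.1, a difference of 0.20 in the log2 of the ratio. This difference rests on MMP7. Without it, the ratio went from 0.88 with DMSO to 0.90 with CCA-1.1, a log2 difference of 0.031, while without MMP2 the log2 difference was 0.47. MMP7 made up 16.2% of the TPM of all 23 MMPs in DMSO and 25.4% in CCA-1.1, while MMP2 made up 71.7% and 65.9% and MMP3 6.27% and 3.45%. The make-up of the TIMPs differed less, with TIMP1 at 73.3% of the TPM of all 4 TIMPs in DMSO and 72.3% in CCA-1.1. These are transcript levels, and neither proenzyme activation nor protein was measured.

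**Figure D2:**
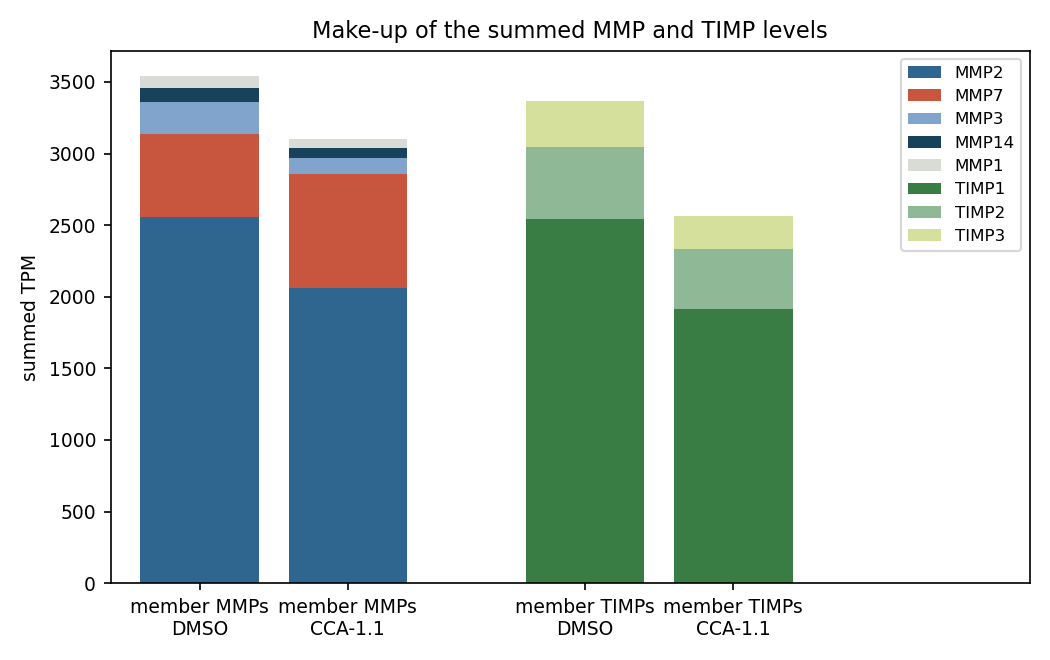
Summed TPM of the member MMPs (left bars) and member TIMPs (right bars) in the DMSO and CCA-1.1 libraries, 1 library each, divided by gene; MMP9 and MMP10 are too low to be seen. The MMP sum is 3541 TPM with DMSO against 3103 TPM with CCA-1.1 and the TIMP sum 3367 and 2565 TPM, with the MMP7 segment taller in CCA-1.1.

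MMP1, MMP3, MMP7 and MMP10 lie in a group of 9 MMP genes within 435.2 kb of chromosome 11 (chr11:102520508-102955732), and the other 6 members lie elsewhere. Along this group the direction of the difference was not uniform. At one end, MMP7 was higher with CCA-1.1, and its neighbour MMP20, known from tooth enamel, was at 0.54 TPM with DMSO against 1.87 TPM with CCA-1.1. Further along, MMP10, MMP1, MMP3 and MMP12, which follow each other in this order, were each lower. MMP10 and MMP12 were under 1 TPM in both libraries, so the lower values of this stretch rest on MMP1 and MMP3. MMP12, the macrophage elastase, was at 0.71 TPM with DMSO against 0.41 TPM with CCA-1.1. Between these stretches lie MMP27, listed at 0 in both libraries, and MMP8, and at the far end lies MMP13, also listed at 0 in both. Of the 9 genes, 4 had a mean of at least 1 TPM (MMP7, MMP20, MMP1 and MMP3), and MMP20 passed that minimum through the CCA-1.1 library alone. The nearest protein-coding neighbour on the MMP7 side, TMEM123, was at 170.1 TPM with DMSO against 169.0 TPM with CCA-1.1. On the MMP13 side, DCUN1D5 was at 3.93 TPM and 4.32 TPM. These neighbours were taken up after the values of the group had been seen.

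Of the other 17 family genes, 6 had a mean of at least 1 TPM, and 3 of these were higher and 3 lower, with a median difference of 0.075. These counts include MMP20, which passed the minimum through the CCA-1.1 library alone, and without it 2 were higher and 3 lower, with a median of -0.030. TIMP4, the fourth inhibitor, was at 100.5 TPM with DMSO against 88.4 TPM with CCA-1.1 (log2 difference -0.18). The membrane-type genes MMP17 (9.99 and 11.4 TPM), MMP16 (2.91 and 2.83 TPM) and MMP24 (2.73 and 2.36 TPM) differed by 0.18, -0.030 and -0.15. MMP19 was at 5.30 TPM with DMSO against 6.29 TPM with CCA-1.1 (log2 difference 0.21). MMP20, at 0.90, was the gene of these 6 past 1.5-fold, against 0.963% of all tested genes more than 1.5-fold higher. Its TPM was 3.46-fold higher with CCA-1.1, and it was past 2-fold with a pseudocount of 0.1 TPM or none, but it was under 2 TPM in both libraries. Of the whole family of 27 genes, 13 had a mean under 1 TPM, and 5 of them were listed at 0 in both libraries.

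Genes around the family were grouped in lists chosen with results of these data known. Their counts stand beside the share of 46.0% lower and the median of 0.017 of all tested genes. This background differed with level. Among the 1499 tested genes averaging 100 TPM or more, 867 were lower and 632 higher, with a median of -0.027. Of all tested genes, 0.191% were more than 2-fold lower and 0.149% higher, and 0.739% were more than 1.5-fold lower and 0.963% higher. Activators of proMMPs were a list of 12 genes, of which 6 had a mean of at least 1 TPM, 5 lower and 1 higher, with a median difference of -0.28. This median was -0.13 with curated transcripts, -0.084 with the highest transcript of each gene and -0.037 with no minimum mean. PLAU, the urokinase that turns plasminogen into plasmin, was at 90.1 TPM with DMSO against 55.6 TPM with CCA-1.1 (log2 difference -0.69), and was the 1 gene of the list past 1.5-fold. Its receptor PLAUR was at 122.7 and 99.8 TPM (-0.29). FURIN, the protease that activates proMMP14 inside the cell, was at 149.2 and 104.6 TPM (-0.51), and PCSK7, of the same enzyme family, at 6.94 and 5.64 TPM (-0.26). CTSB, the lysosomal protease cathepsin B, differed by -0.018 and PLAT, the tissue plasminogen activator, by 0.092. Plasminogen itself (PLG) was at 0.09 TPM in DMSO and listed at 0 in CCA-1.1.

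Inhibitors and surface partners of MMPs other than TIMPs were a list of 16 genes, of which 13 had a mean of at least 1 TPM, and all 13 were lower with CCA-1.1, with a median difference of -0.33. TFPI2, a serine protease inhibitor that blocks plasmin, was at 2419 TPM with DMSO against 1454 TPM with CCA-1.1 (log2 difference -0.73). SPOCK1, a matrix proteoglycan, was at 184.5 and 132.9 TPM (-0.47), and SERPINE2, an inhibitor of thrombin and urokinase, at 791.6 and 592.6 TPM (-0.42). TFPI2 was the 1 gene of this list past 1.5-fold. The smallest differences in the list were those of LRP1, the receptor that clears proteases, at -0.060, of RECK, a membrane-anchored MMP inhibitor, at -0.027, and of the integrin subunit ITGAV at -0.021.

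Matrix substrates were a list of 30 genes, of which 25 had a mean of at least 1 TPM, 18 lower and 7 higher, with a median difference of -0.11. The glycoprotein tenascin C (TNC) was at 162.7 TPM with DMSO against 96.7 TPM with CCA-1.1 (log2 difference -0.74), and was the 1 gene of the list past 1.5-fold on the log2(TPM + 1) scale. The proteoglycan DCN was at 3.49 and 2.01 TPM (-0.58) and the laminin chain LAMA4 at 14.9 and 9.83 TPM (-0.55). Without the pseudocount, DCN was 1.74-fold and LAMA4 1.51-fold lower in TPM, beside 1.68-fold for TNC. The largest positive differences were those of the collagen chain COL1A1 (0.30), the laminin chain LAMB2 (0.22) and the brain proteoglycan BCAN (0.076).

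Transcription factors known to act on MMP promoters were a list of 25 genes, all with a mean of at least 1 TPM, 19 lower and 6 higher, with a median difference of -0.098 and none past 1.5-fold. Of the AP-1 subunits, JUNB was at 175.9 TPM with DMSO against 146.9 TPM with CCA-1.1 (-0.26) and FOSL2 at 64.7 and 54.0 TPM (-0.26). The other AP-1 subunits of the list differed by less, FOSB by -0.25, FOS by -0.16, FOSL1 by -0.098, JUN by -0.069 and JUND by -0.016. JUND (685.4 and 677.8 TPM) and JUN (237.1 and 226.0 TPM) had the highest levels of these subunits. CEBPB, a factor of inflammatory genes, was at 521.0 and 401.2 TPM (-0.38). ATF3, a stress-induced factor that can pair with AP-1 subunits, was at 84.9 and 114.9 TPM (0.43), and NFKB1 and ETS1 differed by 0.13 and 0.12.

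Secreted inducers of MMP genes and their receptors were a list of 25 genes, of which 22 had a mean of at least 1 TPM, 19 lower and 3 higher, with a median difference of -0.14. IL6, an inflammatory cytokine, was at 11.1 TPM with DMSO against 4.92 TPM with CCA-1.1 (log2 difference -1.03), and was the 1 gene of the list past 2-fold. With a minimum mean of 10 TPM, which IL6 did not reach, 0 genes of the list were past 2-fold. Past 1.5-fold lower were 3 of the 22 genes, IL6, IL1B and EREG, against 0.739% of all tested genes. IL1B, a classical inducer of MMP1 and MMP3, was at 74.6 and 44.2 TPM (-0.74), and the EGFR ligand EREG at 113.9 and 71.8 TPM (-0.66). The higher genes were EGF (0.30), HGF (0.24) and PDGFA (0.16), each under 10 TPM in both libraries. Genes of the ADAM and ADAMTS families were a list of 23. Of these, 16 had a mean of at least 1 TPM, 7 lower and 9 higher, with a median difference of 0.017. They ran from -0.31 for ADAM15, -0.25 for ADAM10 and -0.20 for ADAM9 to 0.27 for ADAM22, 0.33 for ADAMTS2 and 0.58 for ADAMTS6, and none passed 1.5-fold on this scale. ADAMTS6 was at 3.12 and 5.16 TPM, which is 1.65-fold higher in TPM without the pseudocount.

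The labelled cell type was set against its markers. VIM and CHI3L1, of mesenchymal glioblastoma cells, were at 3217 and 4947 TPM in DMSO and 3106 and 4397 TPM in CCA-1.1. The astrocyte markers GFAP, S100B and AQP4 were under 1 TPM in both libraries, and SOX2, OLIG2, NES and FABP7 were between 1.45 and 7.62 TPM. The glutamate transporter SLC1A3 was at 42.6 and 28.6 TPM and the surface receptor CD44 at 607.4 and 472.6 TPM, both lower with CCA-1.1 like most members. Of the 10 markers of immune, endothelial and epithelial cells, 7 had a mean under 1 TPM. The other 3 were lower with CCA-1.1, CD68, which is also a general lysosomal gene, at 494.2 and 397.1 TPM, PECAM1 at 3.41 and 2.71 TPM and CD14 at 1.82 and 1.54 TPM. Their part in the values of the members was not tested.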

How the data were processed

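RNA from U87 cells kept for 72 h with DMSO or CCA-1.1 was sequenced, 1 library per condition. Libraries of enriched mRNA were run by the authors on an Illumina HiSeq, with read checks in FastQC 0.11.9 and MultiQC 1.1 and transcript quantification in Kallisto on GRCh38.p14. Their deposited table gives TPM to 2 decimals, its columns summing to 999999 and 1e+06, so read depth is unknown and no interval for counting error or limit for a 0 is given. Of 177816 transcripts, 169966 matched a RefSeq gene symbol with versions ignored; the others held 0.941% (DMSO) and 0.967% (CCA-1.1) of TPM. Gene values are sums over transcripts. Differences are log2((CCA-1.1 TPM + 1) / (DMSO TPM + 1)), counted past 2-fold or 1.5-fold among the 12041 protein-coding genes averaging 1 TPM or more. No count test was run, because the values are TPM and no group has replicates. The calculation was tested on simulated data with planted changes larger than 2-fold. This checks the arithmetic, and not smaller changes, genes at low TPM or the noise of these libraries.

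Members and gene lists were chosen with earlier results of these data known. Named genes were all members and other family genes averaging 1 TPM or more. In the lists of activators, inhibitors and partners, ADAM and ADAMTS genes, substrates, transcription factors and inducers, the 3 highest and 3 lowest differences were named. Genes outside this rule were named after their values were seen (PLG, MMP8, MMP11, MMP12, MMP13, MMP26, MMP27, other AP-1 subunits, markers, neighbours, overlapping genes). Alternatives were a pseudocount of 0.1 TPM or none, other minima, median-ratio scaling, curated transcripts, the highest transcript, and versioned identifiers. Promoter windows are from RefSeq. Protein sequences were not used here. Python 3.11.15, numpy 2.4.6, pandas 2.3.3 and matplotlib 3.10.9 were used.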

Additional observations from a re-analysis of the deposited data

How the results depend on the processing

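No paired analysis was possible because each condition has a lone library, which also could not be left out. A pseudocount cannot turn the sign of a difference, and the choices of transcripts and identifiers changed no member but MMP2, which was at -0.37 with its highest transcript alone, so these settings do not test the members' directions. Among the members, MMP9 and MMP10, under 1 TPM, depended most on the pseudocount, with 0.39 and -0.76 at 0.1 TPM and 0.58 and -0.93 without one, and MMP20 was past 2-fold with either setting. The median of the members ran from -0.39 to -0.32 over all settings, and scaling by the median ratio used a factor of 0.997. The median of the activators was -0.037 with no minimum mean, -0.13 with curated transcripts and -0.084 with the highest transcript alone, and the cause was not tested. The median of the ADAM and ADAMTS genes was -0.093 with a minimum mean of 100 TPM, a setting chosen after seeing the data. Settings that left out a gene were also chosen after seeing the data. The log2 difference of the MMP to TIMP ratio was 0.031 without MMP7, 0.47 without MMP2 and 0.16 without TIMP1. The median of the other family genes was -0.030 without MMP20, also a setting chosen after seeing the data. A median was counted as moved past a shift of 0.1, a limit set by hand because no replicate spread exists. Without read counts, values near 0 have no known precision.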

Other observations

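Genes whose coordinates overlap a member were each under 3 TPM in both libraries. WTAPP1, a transcribed pseudogene that overlaps MMP1 and MMP3, was at 0.04 TPM with DMSO against 0.05 TPM with CCA-1.1. The synapsin gene SYN1, which overlaps TIMP1, was at 0.64 TPM in both libraries, and SYN3, which overlaps TIMP3, was at 0.49 and 0.53 TPM. LOC124904068, a long non-coding RNA that overlaps TIMP2, was at 2.74 TPM with DMSO against 1.62 TPM with CCA-1.1. Outside the members, MMP24 overlaps MMP24OS (66.1 TPM with DMSO, 54.2 TPM with CCA-1.1) and MMP24-AS1-EDEM2 (6.91 and 9.57 TPM). The curated MMP24 transcript NM_006690.4 was listed at 0 in both libraries. MMP19 overlaps the transcribed pseudogene TMEM198B (6.38 and 7.5 TPM), and TIMP4 overlaps SYN2 (5.1 and 4.17 TPM). Overlap was taken from whole gene spans, and overlap of exons was not checked. Whether the counting used strand is not given in the sources used here. Reads from any stretch shared with an antisense partner therefore cannot be told apart.

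Among the other family genes, the MMP19 total was higher with CCA-1.1 while its transcripts went different ways. NM_002429.6 was at 4.41 TPM with DMSO against 6.29 TPM with CCA-1.1, and the non-coding NR_073606.2 was at 0.89 TPM in DMSO and listed at 0 in CCA-1.1. In MMP17, the curated transcript NM_016155.7 was at 0.72 TPM with DMSO against 0.13 TPM with CCA-1.1, while the gene total was at 9.99 and 11.4 TPM. On the flank of the MMP group of chromosome 11, BIRC3, an inhibitor of apoptosis induced by NF-kB, was at 9.64 TPM with DMSO against 12.6 TPM with CCA-1.1 (log2 difference 0.35), and BIRC2 was at 27.8 and 30.5 TPM. YAP1, further out on the same flank, was lower, at 47.1 and 41.2 TPM (-0.19).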
